A study of Homo sapiens with 6 samples.

Results

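The genes described here are 10 feedback genes of the mitogen-activated protein kinase (MAPK) pathway that lies below EGFR: the phosphatase genes DUSP4, DUSP5 and DUSP6, the Sprouty genes SPRY1, SPRY2 and SPRY4, the SPRED genes SPRED1 and SPRED2, and the immediate early genes IER3 and PHLDA1. They were given as a list by their role, with earlier results of these data known, and all 10 were found among the 20098 protein-coding genes of chromosomes 1 to 22 and X. Every called ATAC-seq peak that overlapped the body of a gene or the 50 kb to each side of it was taken. This gave 46 of the 29879 peaks of the series, which fell into 36 of its 23972 merged regions. The lines were HET-1A, a non-cancerous line from esophageal epithelium (libraries 1 and 2), and 2 lines of esophageal squamous cell carcinoma (ESCC), KYSE-30 with libraries 4 and 6 and KYSE-150 with libraries 7 and 8. The libraries of a line are biological replicates by the design text, and no treatment is named for any of them. HET-1A was grown in BEBM with its additives and the ESCC lines in RPMI/F12 with serum, so that line and medium cannot be told apart, and each line stands for a single donor.

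When a growth factor binds EGFR, the signal runs through RAS, RAF and MEK to the kinase ERK, which changes transcription in the nucleus. Some of the genes that ERK switches on encode inhibitors of the same cascade, so the pathway limits its own output. DUSP proteins remove the activating phosphates from ERK and related kinases, Sprouty and SPRED proteins act higher up, between the receptor and RAF, and IER3 and PHLDA1 are rapid response genes of growth factor signaling. ATAC-seq marks where the transposase Tn5 can reach the DNA of such genes, and an accessible promoter does not measure transcription.

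Each library has its own peak list, and their lengths differ widely, from 168 peaks in HET-1A library 1 to 15979 in HET-1A library 2. The lists of KYSE-150 held 547 (library 7) and 259 peaks (library 8), those of KYSE-30 1255 (library 4) and 11671 (library 6). The values given for a peak are its fold enrichment, which divides summit tags by the local background of the library after 1 is added to each, and a q-value within the library. The tags themselves were recovered from the fold enrichment and the p-value of the peak. The background of the whole genome was 1.49 to 3.34 tags per 200 bp, and where the local background was at that level the smallest summit that was called had 8 to 13 tags. A gene without a peak in a short list may thus still be accessible. With 2 libraries per line, the smallest two-sided p-value of an exact permutation test between lines is 0.33, so values are given by library and no test between lines was made. As a check of the cell type, KRT6A, KRT8, KRT18 and EPCAM of 8 epithelial markers had a promoter peak in HET-1A library 2 and KRT8 and EPCAM in KYSE-30 library 6, while KRT5, KRT14, TP63 and CDH1 had none in any library. In HET-1A library 2, KRT8 and KRT18 had the same fold enrichment (5.33), so 1 peak may count for both. None of 10 markers of leukocytes, endothelium and fibroblasts had a promoter peak in any library. Distal peaks were called near some of them, at CDH5, VWF and PDGFRA (1 each) in HET-1A library 2 and at VWF (5) and CD79A (1) in KYSE-30 library 6. Of the epithelial markers without a promoter peak, TP63 had 6 distal peaks in KYSE-30 library 6 and 1 each in KYSE-30 library 4 and HET-1A library 2, CDH1 had 3 in HET-1A library 2 and 1 in KYSE-30 library 4, and KRT14 had 1 in HET-1A library 2. The part of other cells in the results was not tested. The short lists had no promoter peak at any of these markers.

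A promoter peak, one that reached within 3 kb of a start site of the gene, was called at 5 of the 10 feedback genes in HET-1A library 2 (DUSP6, SPRY4, SPRED2, IER3 and PHLDA1) and at 6 in KYSE-30 library 6 (DUSP5, DUSP6, SPRY2, SPRY4, SPRED2 and PHLDA1). Over all protein-coding genes the share was 35.5% and 28.8% in these libraries. In KYSE-30 library 4 only PHLDA1 had such a peak, beside 3.89% of all genes. HET-1A library 1 and KYSE-150 libraries 7 and 8 had none, where 0.0945%, 1.8% and 0.363% of all genes had a promoter peak. DUSP6, SPRY4, SPRED2 and PHLDA1 had a promoter peak in both long lists (4 genes, against 18.3% of all genes), IER3 in HET-1A library 2 and not in KYSE-30 library 6 (17.1% of all genes), and DUSP5 and SPRY2 in KYSE-30 library 6 and not in HET-1A library 2 (10.4%). DUSP4, SPRY1 and SPRED1 had no promoter peak in any library, as did 53.5% of all genes. In the matrix of fold enrichment by gene and library, nearly all values stand in the columns of these 2 libraries.

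**Figure D1:**
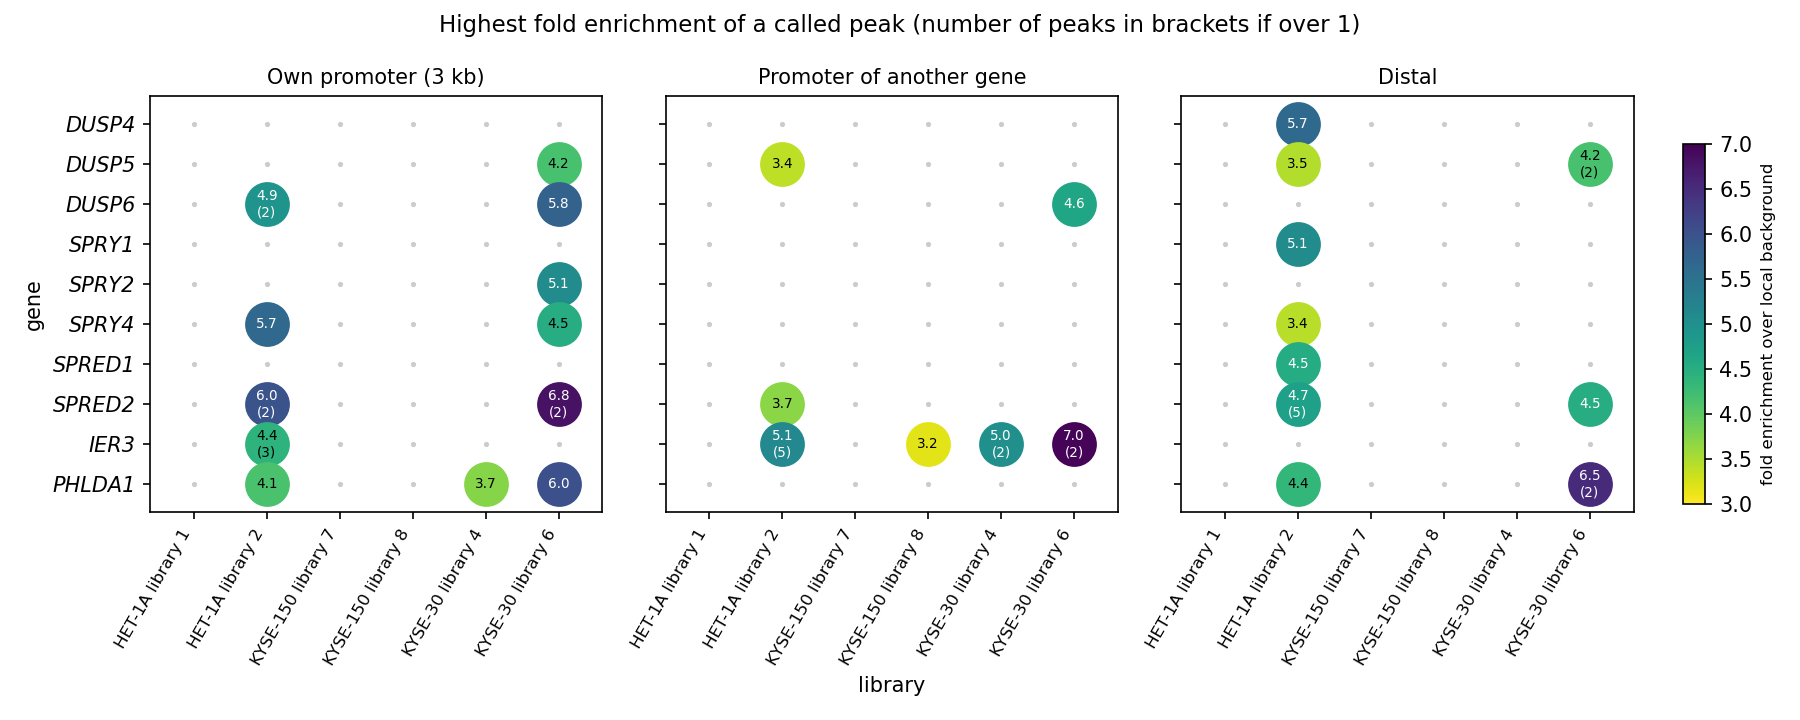
Highest fold enrichment of the called peaks of each gene (rows) in each library (columns), for peaks in the promoter of the gene, in the promoter of another gene within the window, and for distal peaks; a small grey dot marks no called peak and brackets give the number of peaks where it is over 1. The filled circles lie mostly in HET-1A library 2 and KYSE-30 library 6, with PHLDA1 as the only gene whose own promoter was called in a further library.

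Among the phosphatase genes, DUSP6 (ENSG00000139318), which encodes a cytoplasmic phosphatase selective for ERK, had the most peaks at its start. It lies on the reverse strand of chromosome 12 from 89741012 to 89746278 of hg19. HET-1A library 2 had a promoter peak from 89746274 to 89746588 with a fold enrichment of 4.93 (q = 8.14e-08) and 21 tags at the summit (95% Poisson interval 13.0 to 32.1), and KYSE-30 library 6 had a wider peak from 89746080 to 89746630 with a fold enrichment of 5.75 (q = 1.34e-09) and 22 tags (13.8 to 33.3). These summits lay 173 bp upstream and 17 bp downstream of the nearest annotated start, so the same promoter was open in both libraries. A further peak 1517 bp upstream was called in HET-1A library 2 only, with a fold enrichment of 3.59. The part of the KYSE-30 peak upstream of the gene is shown because both lines share it (chr12:89746279-89746407, reverse strand, hg19). It reads 5′ to 3′ toward the start site and holds none of the motifs searched.
DUSP6 promoter: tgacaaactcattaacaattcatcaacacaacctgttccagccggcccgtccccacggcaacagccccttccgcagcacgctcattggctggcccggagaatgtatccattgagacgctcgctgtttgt

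DUSP5 (ENSG00000138166), a nuclear phosphatase of ERK, showed different sites in the 2 long lists. Its body spans 112257665 to 112271291 on chromosome 10 (forward strand). In KYSE-30 library 6 a peak from 112260973 to 112261241 lay in an intron, 1418 bp upstream of an internal start site, with a fold enrichment of 4.17 (q = 1.11e-04) and 15 tags (8.40 to 24.7). This peak counted as a promoter peak through the internal start site, and with a promoter of 1 kb it no longer did. The same library had distal peaks 27.7 and 53.8 kb downstream of the nearest start site of the gene, with fold enrichments of 3.80 and 4.17. HET-1A library 2 had no peak in the gene, but had peaks 23521 and 15822 bp upstream in an exon and an intron of the divergent transcript DUSP5-DT, with fold enrichments of 3.40 and 3.45. No DUSP5 peak of one library overlapped a peak of another. The intronic peak is shown because it was called in KYSE-30 library 6 alone (chr10:112260973-112261241, forward strand, hg19), with the AP-1 core sequence, the binding site of FOS and JUN proteins, in capitals.
DUSP5 intron: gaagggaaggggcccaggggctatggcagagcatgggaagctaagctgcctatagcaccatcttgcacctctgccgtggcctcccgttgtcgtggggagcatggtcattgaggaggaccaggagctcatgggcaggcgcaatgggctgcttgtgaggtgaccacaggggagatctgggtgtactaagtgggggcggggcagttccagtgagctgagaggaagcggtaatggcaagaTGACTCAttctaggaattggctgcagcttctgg

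The Sprouty genes, whose products bind adaptor proteins and RAF and damp receptor tyrosine kinase signaling, differed from each other. SPRY2 (ENSG00000136158, chromosome 13 from 80910111 to 80915261, reverse strand) had 1 peak in its whole window, in KYSE-30 library 6, from 80915280 to 80915587. Its summit lay 159 bp upstream of the start site with a fold enrichment of 5.07 (q = 1.13e-07) and 20 tags (12.2 to 30.9). HET-1A library 2, the longer list, had no peak there. A stretch of 300 bases of this promoter peak is shown as the clearest promoter called in KYSE-30 library 6 and not in HET-1A library 2 (chr13:80915280-80915579, reverse strand, hg19), and 69.7% of them are G or C.
SPRY2 promoter: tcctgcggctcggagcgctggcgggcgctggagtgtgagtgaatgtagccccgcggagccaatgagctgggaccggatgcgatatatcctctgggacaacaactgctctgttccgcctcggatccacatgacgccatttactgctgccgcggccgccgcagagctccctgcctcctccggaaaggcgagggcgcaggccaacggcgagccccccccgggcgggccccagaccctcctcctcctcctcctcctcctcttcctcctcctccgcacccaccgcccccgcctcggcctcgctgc
SPRY4 (ENSG00000187678, chromosome 5 from 141689992 to 141706020, reverse strand) had a promoter peak in both long lists, at internal start sites that also lie in the promoter of SPRY4-AS1. In HET-1A library 2 it had a fold enrichment of 5.66 (q = 8.63e-14) with 34 tags (23.5 to 47.5), and 13.2% of the peaks of that library had a higher value. In KYSE-30 library 6 the fold enrichment was 4.5 (q = 9.08e-06) with 17 tags (9.90 to 27.2), and 79.8% of the peaks were higher. SPRY4 was thus a strong peak in HET-1A library 2 and a weak one in KYSE-30 library 6, each against its own list. HET-1A library 2 also had a distal peak 36458 bp upstream with a fold enrichment of 3.43. The upstream part of the promoter peak is shown for a word of 10 letters, in capitals, that occurs in it 3 times (chr5:141704596-141704785, reverse strand, hg19).
SPRY4 promoter: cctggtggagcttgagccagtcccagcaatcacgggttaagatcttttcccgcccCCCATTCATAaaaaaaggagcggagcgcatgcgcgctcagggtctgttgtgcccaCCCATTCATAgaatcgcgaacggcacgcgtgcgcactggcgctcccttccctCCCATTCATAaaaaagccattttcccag
This word, CCCATTCATA, was noticed after the sequence was seen. Among 35116 RefSeq promoters of GRCh38, each of 300 bases around the start and searched on both strands, 16 hold it at least once (0.0456%), and only that of SPRY4-AS1 holds it 3 times.

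The SPRED genes encode relatives of Sprouty that bring neurofibromin, which switches RAS off, to the membrane. SPRED2 (ENSG00000198369, chromosome 2 from 65537985 to 65659771, reverse strand) had the highest promoter fold enrichment of the feedback genes in both long lists. It was 5.98 in HET-1A library 2 (q = 4.64e-18, 43 tags, 31.1 to 57.9) and 6.83 in KYSE-30 library 6 (q = 3.73e-16, 33 tags, 22.7 to 46.3). The summit in HET-1A library 2 lay 18 bp upstream of the nearest annotated start site, inside the gene. The summit in KYSE-30 library 6 lay 44 bp upstream of the 5′ end of the gene. In these lists, 9.47% and 21.9% of all peaks had a higher value. The part of the peak upstream of the gene is shown as the promoter with the most tags in both lines (chr2:65659772-65659965, reverse strand, hg19).
SPRED2 promoter: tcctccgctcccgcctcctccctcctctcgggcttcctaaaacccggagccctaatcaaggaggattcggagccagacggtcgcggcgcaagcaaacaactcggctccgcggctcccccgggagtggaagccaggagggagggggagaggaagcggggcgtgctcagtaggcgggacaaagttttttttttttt
Inside the gene, each of these libraries had a peak near another group of SPRED2 start sites, but not the same one. The HET-1A peak spanned 65594669 to 65594879 with a fold enrichment of 4.68, the KYSE-30 peak 65593851 to 65594050 with 4.87. The KYSE-30 peak held an AP-1 core sequence 4 bp from its summit, in capitals in its upstream part (chr2:65593887-65594050, reverse strand, hg19).
SPRED2 internal start: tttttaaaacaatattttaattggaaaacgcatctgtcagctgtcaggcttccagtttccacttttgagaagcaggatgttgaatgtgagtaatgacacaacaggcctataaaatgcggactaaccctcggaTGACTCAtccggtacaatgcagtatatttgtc
HET-1A library 2 had 5 distal peaks at SPRED2, of which 4 lay in its introns and 1 beyond its end, with fold enrichments from 3.57 to 4.75. KYSE-30 library 6 had 1, 10251 bp upstream, at 4.51.

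Of the immediate early genes, PHLDA1 (ENSG00000139289), a protein with a pleckstrin homology-like domain, was the only feedback gene with a promoter peak in 3 libraries. It lies on the reverse strand of chromosome 12 from 76419227 to 76425556. In HET-1A library 2 its fold enrichment was 4.14 (17 tags, 9.90 to 27.2). KYSE-30 had 3.72 in library 4 (15 tags, 8.40 to 24.7) and 6.02 in library 6 (19 tags, 11.4 to 29.7). Both KYSE-30 libraries and HET-1A library 2 thus had an open PHLDA1 promoter, and neither KYSE-150 library had a called peak there. The HET-1A peak (76425359 to 76425569) and that of KYSE-30 library 4 (76425563 to 76425842) overlapped only at their edges. Their summits, at 76425439 and 76425718, both lay within the wider peak of KYSE-30 library 6 (76425273 to 76425774). The peak of KYSE-30 library 4 was the weakest of the 3, with a q-value of 4.36e-03. The part upstream of the gene is shown (chr12:76425557-76425680, reverse strand, hg19), and 69.4% of it is G or C.
PHLDA1 promoter: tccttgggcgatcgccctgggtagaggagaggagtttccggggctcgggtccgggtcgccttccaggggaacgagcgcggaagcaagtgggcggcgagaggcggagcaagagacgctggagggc
PHLDA1 also had the only distal site that was called in both long lists, 53.6 kb downstream of the nearest start site in HET-1A library 2 and 53.5 kb in KYSE-30 library 6, in an intron of the gene ENSG00000258077. Its fold enrichment was 4.37 in HET-1A library 2 (18 tags, 10.7 to 28.4) and 6.52 in KYSE-30 library 6 (17 tags, 9.90 to 27.2), where it was the highest among the distal peaks of the feedback genes. A second distal peak, 10.7 kb downstream, was called in KYSE-30 library 6 with a fold enrichment of 4.23. Both sites of KYSE-30 library 6 are shown because each holds an AP-1 core sequence near the summit, at 26 and 6 bp (chr12:76371722-76372019 and chr12:76414524-76414723, reverse strand, hg19), in capitals.
PHLDA1 far downstream site: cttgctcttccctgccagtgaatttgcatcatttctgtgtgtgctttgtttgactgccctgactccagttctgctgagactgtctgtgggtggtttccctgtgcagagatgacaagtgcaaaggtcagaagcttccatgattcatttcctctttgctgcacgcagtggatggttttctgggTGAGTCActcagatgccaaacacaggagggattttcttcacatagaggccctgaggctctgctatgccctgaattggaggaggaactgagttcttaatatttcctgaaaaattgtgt
PHLDA1 near downstream site: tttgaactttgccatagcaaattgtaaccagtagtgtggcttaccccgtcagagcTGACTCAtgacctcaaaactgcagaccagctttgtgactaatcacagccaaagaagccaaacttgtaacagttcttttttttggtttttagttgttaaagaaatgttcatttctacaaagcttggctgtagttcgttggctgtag

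IER3 (ENSG00000137331), a short stress and growth factor response gene, lies on the reverse strand of chromosome 6 from 30710976 to 30712325 among closely packed genes. Its window held 13 of the 46 peaks, of which 10 lay in the promoter of another gene and not in that of IER3. In HET-1A library 2 the peak at the IER3 start itself, with the summit 59 bp upstream, had a fold enrichment of 3.87 (q = 4.23e-07) and 27 tags (17.8 to 39.3). The other peaks that counted for IER3 in this library, with fold enrichments of 4.42 and 3.97, lay 201 and 8 bp from the start site of the neighbouring gene FLOT1. No IER3 promoter peak was called in the other 5 libraries. At the shared promoter of MDC1 and TUBB, by contrast, a peak was called in 3 libraries, with a fold enrichment of 4.57 for HET-1A library 2 and of 5.00 and 6.97 for libraries 4 and 6 of KYSE-30. HET-1A library 2 had a second peak near these genes at 4.14. A site 7994 bp upstream of IER3, in an intron of HCG20 and near the start of the RNA gene RN7SL353P, was called in HET-1A library 2 at 4.98 and in KYSE-30 library 4 at 4.30. The only peak of KYSE-150 at any of the 10 genes, in library 8, lay in an exon of MDC1 with a fold enrichment of 3.18, where the local background was 3.19 times that of the genome. At the other 45 peaks the local background was 1.00 to 2.68 times that of the genome. The map of peak positions shows how the sites spread around each gene.

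**Figure D2:**
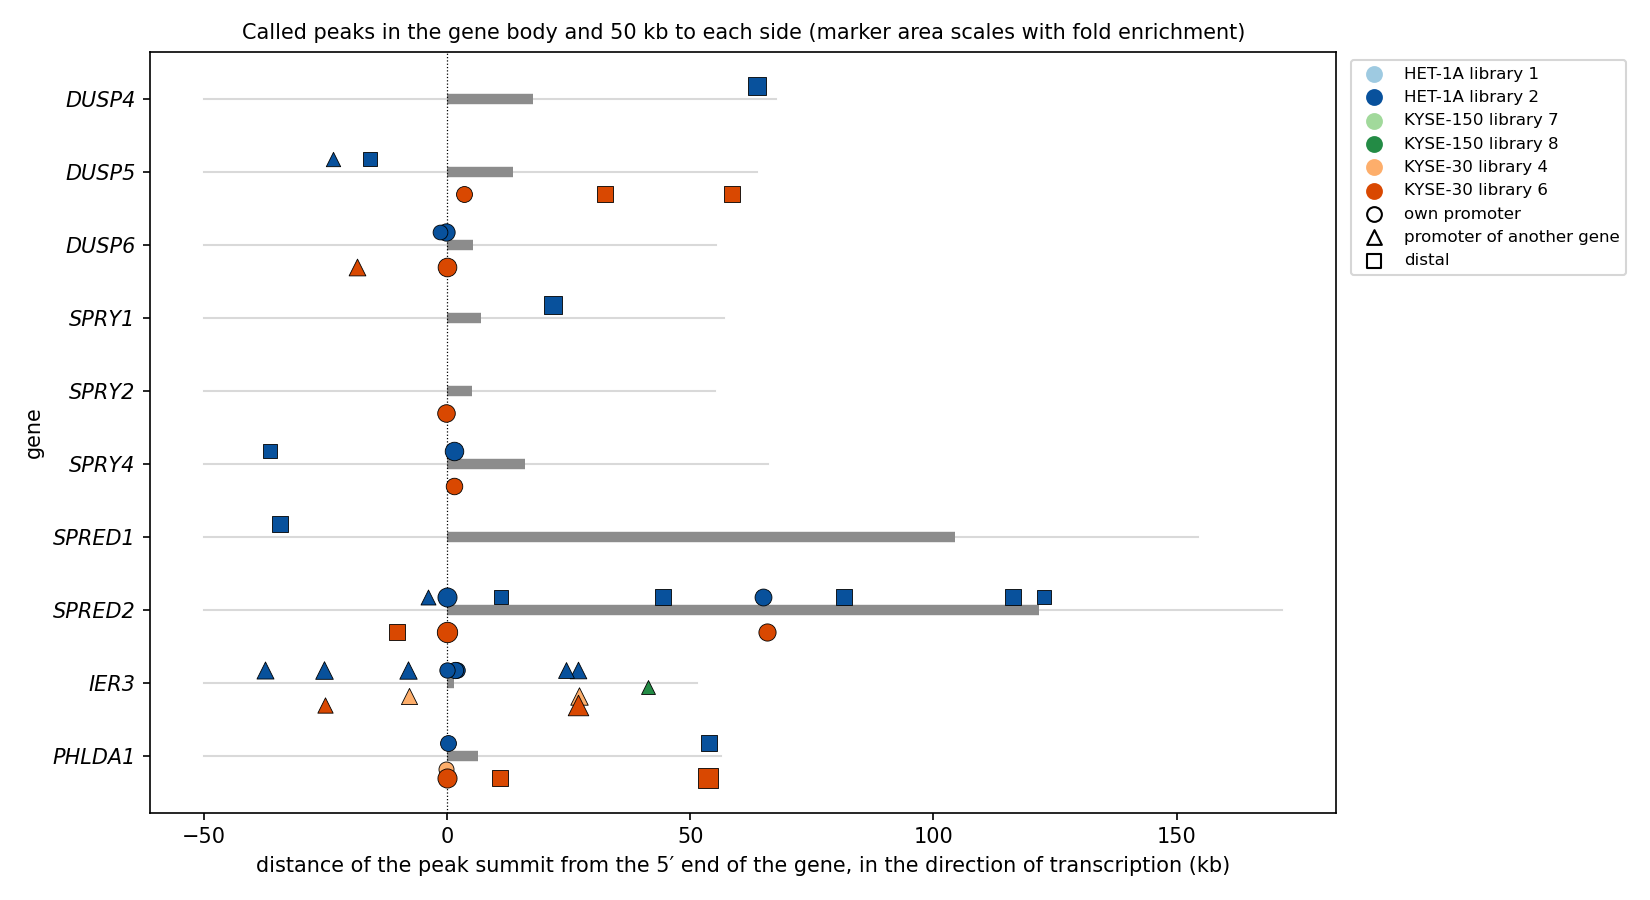
Position of the summit of each called peak relative to the 5′ end of its gene in kb, with the gene body as a thick bar and the 50 kb flanks as a thin line; color gives the library, shape the class of the peak, and area the fold enrichment. Promoter peaks of DUSP6, SPRY4, SPRED2 and PHLDA1 line up between HET-1A library 2 and KYSE-30 library 6. These are 4 of the 12 promoter regions, and 1 of the 15 distal regions was called in both libraries.

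DUSP4, SPRY1 and SPRED1, the genes without a promoter peak, each had a single distal peak, all in HET-1A library 2. DUSP4 (ENSG00000120875), a nuclear phosphatase of ERK and other MAP kinases, lies on chromosome 8 from 29190581 to 29208201. Its window held a single peak, called in HET-1A library 2 at 61.7 kb downstream of the nearest DUSP4 start site, with a fold enrichment of 5.66 and 24 tags (15.4 to 35.7). The nearest protein-coding start site to this peak was that of KIF13B, at 23932 bp. SPRY1 (ENSG00000164056, chromosome 4 from 124317950 to 124324915) had no promoter peak. Its only peak was intergenic, 18.6 kb downstream of the nearest start site, in HET-1A library 2 with a fold enrichment of 5.06 (q = 4.66e-08) and 21 tags (13.0 to 32.1). SPRED1 (ENSG00000166068, chromosome 15 from 38545037 to 38649450) had no peak at its start or in its body of 104.4 kb. Its only peak lay 34404 bp upstream in an intron of LINC02895, in HET-1A library 2, with a fold enrichment of 4.55 (q = 1.66e-06) and 19 tags (11.4 to 29.7).

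Taking all classes, 17 peaks lay in the promoter of their feedback gene, 13 in the promoter of another gene and 16 were distal. The median fold enrichment was 4.68, 4.57 and 4.33 in this order. Of the 17 promoter peaks, 12 had their summit within 200 bp of an annotated start site. HET-1A library 2 had 9 promoter peaks of the feedback genes with a median fold enrichment of 4.42, while the median over all peaks in promoters of this library was 4.45. KYSE-30 library 6 had 7 with a median of 5.07, below the 5.56 over all of its promoter peaks. Over all 3 classes the median was 4.42 in HET-1A library 2, beside 4.22 over the whole list, and 4.64 in KYSE-30 library 6, beside 5.47. For distal peaks it was 4.37 beside 3.97 in HET-1A library 2, and 4.23 beside 5.37 in KYSE-30 library 6. Against its own list, KYSE-30 library 6 thus had lower medians at these genes, while those of HET-1A library 2 were near or above the list. The local background at these peaks of KYSE-30 library 6 had a median of 1.91 times that of the genome, beside 1.44 over all of its peaks, and its part in the lower values was not tested.

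A distal peak, outside the promoter of every annotated gene, was called at 7 of the 10 genes in HET-1A library 2 (DUSP4, DUSP5, SPRY1, SPRY4, SPRED1, SPRED2 and PHLDA1) and at 3 in KYSE-30 library 6 (DUSP5, SPRED2 and PHLDA1), and at none in the other libraries. Over all protein-coding genes the share was 32.8% and 21.9% in these libraries, and 0.677% in HET-1A library 1, 1.32% and 0.791% in KYSE-150 libraries 7 and 8, and 2.48% in KYSE-30 library 4. Per 100 kb of window the feedback genes had 0.847 distal peaks in HET-1A library 2, and all protein-coding genes 0.317. SPRED2 held 5 of the 11, and without it the density was 0.557. In KYSE-30 library 6 the densities were 0.385 and 0.183. Of the 15 distal regions, 1 was called in both libraries, the far site downstream of PHLDA1, and of the 12 promoter regions, 4 were. For all regions of the series, with distal and promoter regions pooled, the share called in both was 18.95%. A share for each class was not computed, so whether distal and promoter regions of these lists differ in this way in general was not tested.

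As a share of all peaks of a library, the windows held 0.169% of HET-1A library 2 (Wilson 95% interval 0.116 to 0.246%) and 0.129% of KYSE-30 library 6 (0.0779 to 0.212%). The share was 0.239% in KYSE-30 library 4 (0.0813 to 0.700%), on 3 peaks, and 0.386% in KYSE-150 library 8 (0.0682 to 2.15%), on 1 peak. HET-1A library 1 and KYSE-150 library 7 had no peak in the windows, which allows a share of up to 1.79% and 0.548% (3 peaks of the list). The windows make up 0.0419% of the genome. All intervals cover counting error only.

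To compare the lines site by site, the 36 merged regions were sorted by the libraries that had a peak in them. Of these, 7 were called in both HET-1A library 2 and KYSE-30 library 6 (19.4%, against 18.95% of all regions of the series), 20 in HET-1A library 2 without KYSE-30 library 6 (55.6% against 47.6%) and 8 in KYSE-30 library 6 without HET-1A library 2 (22.2% against 29.6%). The last one, called in KYSE-150 library 8 alone, left 2.78% for all other patterns, against 3.88%. A peak in both libraries of a line and in no library of another line was found in 0 regions for each line, while over all regions this held for 0.0626% in HET-1A, 0.0459% in KYSE-150 and 0.726% in KYSE-30.

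At the 7 regions called in both long lists, the tags at the summit were divided by the genome background of the library and compared. Over all 4543 regions shared by these libraries, the median log2 ratio of KYSE-30 library 6 over HET-1A library 2 was 0.67, with quartiles of 0.22 and 1.17. The smallest summit called at genome background had 8 tags over 1.49 in KYSE-30 library 6 and 12 tags over 3.34 in HET-1A library 2. A shared region thus had to stand higher above background in KYSE-30 library 6 to be called. The part of this floor in the median was not tested. The promoters of PHLDA1 (1.33, 95% interval 0.31 to 2.36) and DUSP6 (1.24, 0.30 to 2.17) were above the upper quartile. The PHLDA1 far downstream site (1.09, 0.04 to 2.13), the MDC1 and TUBB promoter in the IER3 window (1.02, 0.21 to 1.82) and the SPRED2 promoter (0.79, 0.09 to 1.47) lay between the quartiles. The SPRY4 promoter (0.17, -0.76 to 1.05) and the HCG20 promoter in the IER3 window (0.12, -0.87 to 1.05) were below the lower quartile. By fold enrichment, which divides by the local background, the order differed. The median log2 ratio of the shared regions was then 0.26, with quartiles of -0.02 and 0.55. DUSP6 (0.22), SPRED2 (0.19) and the PHLDA1 promoter (0.54) lay between these quartiles. The PHLDA1 far downstream site (0.58) and the MDC1 and TUBB promoter (0.61) were above the upper one. SPRY4 (-0.33) and HCG20 (-0.40) stayed below the lower one. All 7 intervals of the tag ratios, which cover the counting error of 1 library per line, include the median of the shared regions. With 15 to 43 tags at a summit they are wide, so they cannot settle whether a site differs from the rest. The plot of ratios shows the order of the sites and the width of the intervals.

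**Figure D3:**
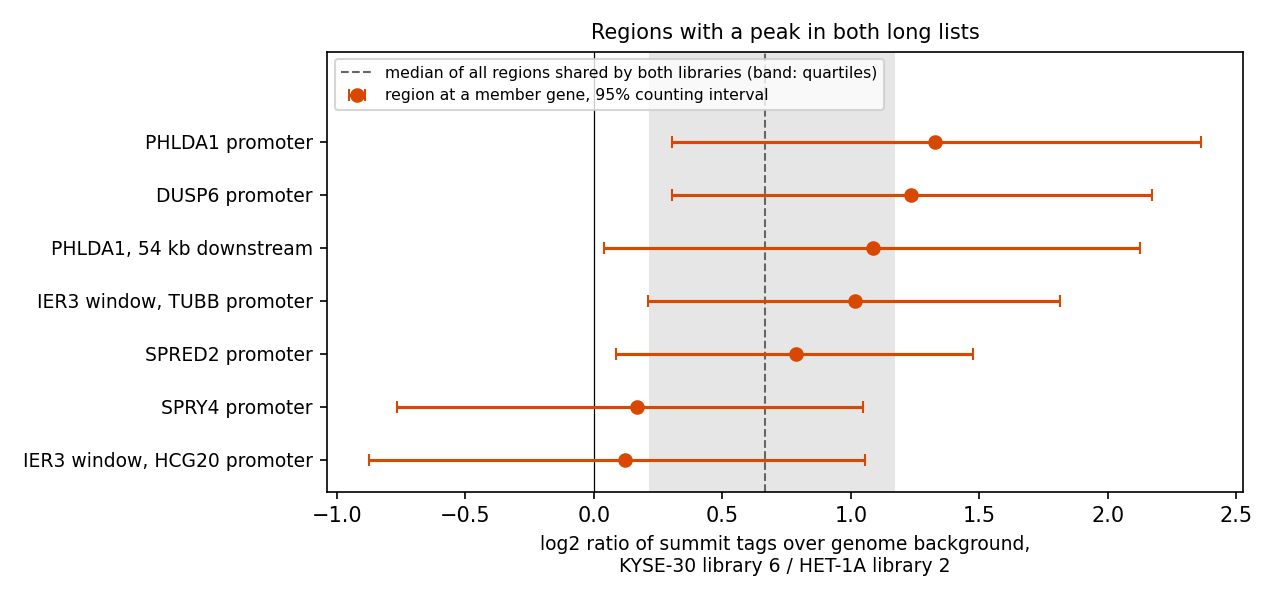
Log2 ratio of summit tags over genome background, KYSE-30 library 6 over HET-1A library 2, for the 7 regions at the feedback genes with a peak in both; bars are 95% exact counting intervals, the dashed line and grey band are the median (0.67) and quartiles of all 4543 shared regions. PHLDA1 and DUSP6 promoters are highest and SPRY4 and HCG20 lowest, and each interval crosses the dashed line.

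Peak sequences were searched on both strands for 4 motifs of factors that respond to ERK signaling: the AP-1 core (TGACTCA or TGAGTCA), an ETS site (CCGGAAGT), the CRE (TGACGTCA) and the CArG box of serum response factor. None of these words contains another, and a match is a description of the letters. AP-1 was found in 6 of the 16 distal peaks (37.5%), at DUSP4, SPRY4, SPRED1 and both PHLDA1 sites, of which the far one counts in both libraries. In HET-1A library 2 it was 4 of 11, beside 36.0% of all distal peaks of the library, and in KYSE-30 library 6 2 of 5, beside 47.3%. The SPRED1 site is shown as an example from HET-1A library 2, with its AP-1 core in capitals at -158 bp from the summit (chr15:38510445-38510744, forward strand, hg19).
SPRED1 upstream site: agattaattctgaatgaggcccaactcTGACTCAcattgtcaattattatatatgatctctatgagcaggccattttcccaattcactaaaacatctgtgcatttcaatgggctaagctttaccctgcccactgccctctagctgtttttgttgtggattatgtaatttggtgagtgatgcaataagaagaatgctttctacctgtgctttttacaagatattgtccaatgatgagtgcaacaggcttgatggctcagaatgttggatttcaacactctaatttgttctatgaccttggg
In the promoter peaks AP-1 was found in 0 of 9 in HET-1A library 2, beside 14.8% of all promoter peaks, and in 2 of 7 in KYSE-30 library 6, beside 15.4%. These were the DUSP5 intron and the internal SPRED2 start printed above, and neither lies at the main start of its gene. None of the 17 promoter peaks held an ETS site, a CRE or a CArG box, which occur in 7.20%, 3.16% and 1.28% of all promoter peaks of HET-1A library 2 and in 7.86%, 3.50% and 1.29% of those of KYSE-30 library 6. Of the 13 peaks in promoters of other genes, 6 held an AP-1 core (46.2%), all in the IER3 window. They were 3 of 7 in HET-1A library 2, 1 of 2 in KYSE-30 library 4 and 2 of 3 in KYSE-30 library 6. Over all promoter peaks of these libraries the shares were 14.8%, 6.88% and 15.4%. The 6 peaks are not separate sites. They fall on the MDC1 and TUBB promoter, the site near RN7SL353P and the HCG20 site called in both long lists, each counted in 2 libraries. The HET-1A peak at an exon of HCG20 in this window held an ETS site and a CRE. In the RefSeq promoters, 11 entries matched 7 of the genes, and the only motif among them was an AP-1 core at SPRED2, which 4.95% of all RefSeq promoters hold.

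The rest of the pathway was read from 3 lists. Over all protein-coding genes, 35.5% had a promoter peak in HET-1A library 2 and 28.8% in KYSE-30 library 6. Of 15 other feedback genes, 5 had a promoter peak in HET-1A library 2 (33.3%) and 4 in KYSE-30 library 6 (26.7%), close to these shares. DUSP10, a phosphatase of stress kinases, was called in both and in KYSE-30 library 4, with fold enrichments of 4.83, 7.94 and 4.63, and DUSP7 in the 2 long lists at 5.02 and 5.42. SPRED3 (5.06) was called in HET-1A library 2, and SPRY3 (6.83) and CBLB (6.47), which encodes a ubiquitin ligase of receptors, in KYSE-30 library 6. Of 20 genes of the core cascade, 12 and 7 had a promoter peak in these libraries (60% and 35%). MAP2K1, the gene of a MEK kinase, had a fold enrichment of 6.93 in HET-1A library 2 and no promoter peak in KYSE-30 library 6. The adaptor gene SHC1 had 5.498 and 5.602 in these libraries, and EGFR 5.06 and 5.96. Distal peaks at EGFR numbered 2 in HET-1A library 2 and 12 in KYSE-30 library 6. KYSE-30 library 4 had 7 of them and no EGFR promoter peak. The mean number of distal peaks over all protein-coding genes was 0.534, 0.308 and 0.0273 in these libraries, in the same order. The paper names amplification of EGFR in many ESCC lines, and the part of copy number in the EGFR counts was not tested. The last list held 12 genes of transcription factors that ERK induces or, like ELK1 and ELK3, phosphorylates. Of these, 9 had a promoter peak in HET-1A library 2 (75%) and 4 in KYSE-30 library 6 (33.3%). ETV5 was highest in both (7.14 and 8.94), with ELK1 at 6.68 and 6.03 and ATF3 at 4.29 and 6.73. ATF3 was the only gene of any of these lists with a peak in KYSE-150, at 2.76 in library 7. The plot of shares by list shows 5 and 6 of the 10 feedback genes beside these counts.

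**Figure D4:**
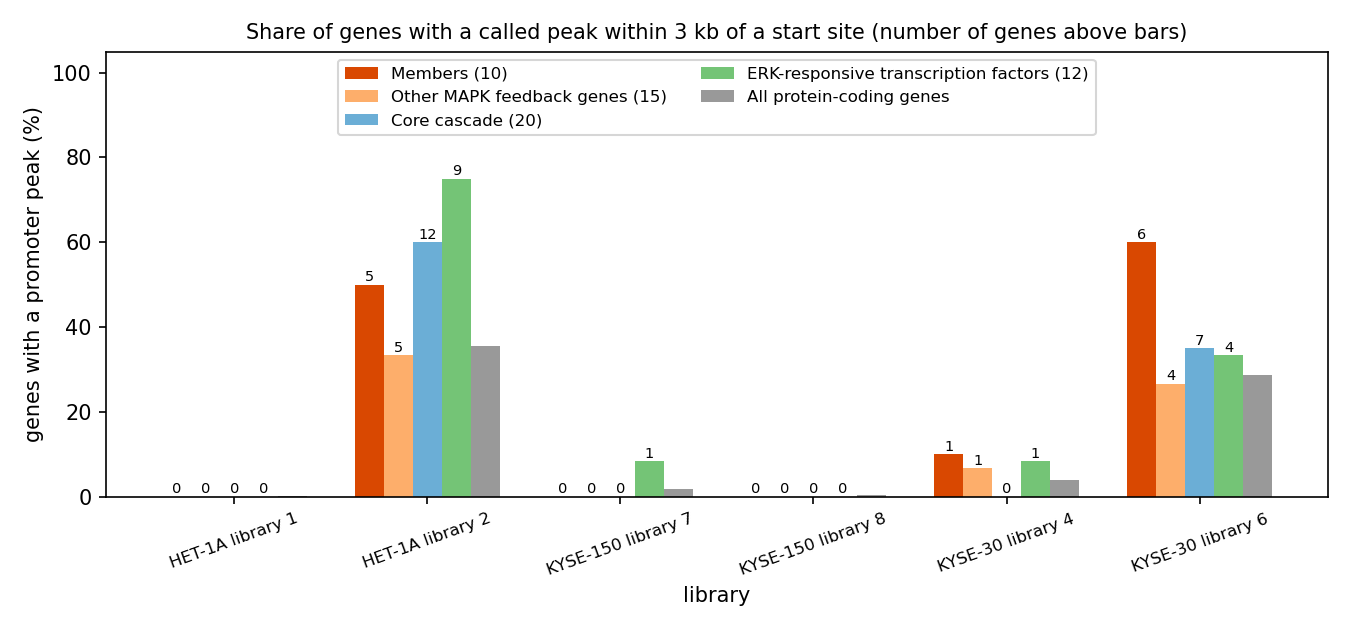
Share of genes with a called peak within 3 kb of a start site, in percent, by library, for the 10 feedback genes (labelled Members), 3 other lists of the pathway and all protein-coding genes; numbers above the bars count genes. In KYSE-30 library 6 the feedback genes have the highest share (6 of 10), in HET-1A library 2 the transcription factors (9 of 12).

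PHLDA1, the feedback gene with a promoter peak in the most libraries, was 1 of 467 protein-coding genes with the same pattern of presence and absence over the 6 libraries. By the distance between log2 fold enrichments the most alike were FADS2 (0.111), GJB5 (0.116) and HSPA4 (0.125), which had fold enrichments of 4.13, 3.86 and 4.43 in HET-1A library 2 and of 6.47, 5.98 and 6.35 in KYSE-30 library 6.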

How the data were processed

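The authors mapped trimmed reads to hg19 (Bowtie2 2.3.3.1, per the submitters' processing notes), marked duplicates, removed blacklisted regions and shifted reads for the Tn5 offset. MACS2 then called peaks for every library by itself (q-value 0.05, extension of 200 bp) on fragments shorter than 100 bp. The deposited lists hold a score (10 times −log10 q), a fold enrichment (a ratio), and −log10 p-values and q-values. Read totals are not used here.

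Summit tags and local background were recovered as the whole number of tags that returns both the deposited fold enrichment and −log10 p (tolerance 0.001), for 99.6 to 100% of peaks. This was tested on 300 simulated peaks per library. Genes and start sites came from GENCODE 44 on hg19, all transcripts included. Overlap meant 1 shared bp. The genes, lists and motifs were chosen with earlier results of these data known. Described were all 10 genes, and of each other list the 3 genes of highest promoter fold enrichment in HET-1A library 2 and in KYSE-30 library 6, of which some core cascade genes are not reported here. Sequences and the repeated word were partly chosen after values were seen. PECAM1 was not found among the genes tested. Intervals are Wilson (shares), exact Poisson (tags) and exact binomial (ratios). No test between lines was run. Alternatives were other q-values, equal list lengths, other promoter and window sizes, other overlap rules, protein-coding start sites, and libraries left out. Computations ran in Python 3.11.15 (scipy 1.17.1, pandas 2.3.3).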

Additional observations from a re-analysis of the deposited data

How the results depend on the processing

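Presence of a peak rests on 2 long lists, and at the 168 strongest peaks of each library no feedback gene had a promoter or distal peak (0 genes in each library). At a q-value under 0.001 the PHLDA1 promoter of KYSE-30 library 4 was lost (0 genes). With a window of 20 kb, HET-1A library 2 had a distal peak at 3 genes and a share of 0.113%, and KYSE-150 library 8 a share of 0%. With 100 kb, KYSE-30 library 6 had distal peaks at 5 genes and a share of 0.223%. When promoters of other genes counted as distal, KYSE-30 library 6 had 5 genes, KYSE-30 library 4 had 1 and KYSE-150 library 8 had 1, and these counts were also 5, 1 and 1 with start sites of protein-coding transcripts only. With a promoter of 1 kb, KYSE-30 library 4 had a distal peak at 1 gene. Regions specific to a line rose from 0 to 19 in HET-1A, 1 in KYSE-150 and 8 in KYSE-30 when a peak in either library was enough. The share of all regions of the series under this rule, or with a library left out, is not given here. Over all regions, 47.6% were called in HET-1A library 2 without KYSE-30 library 6, and 29.6% the other way round. These counts are thus not read as a trait of the feedback genes. Leaving out a library gave 0 to 19 regions in HET-1A, 0 to 1 in KYSE-150 and 0 to 8 in KYSE-30. The highest values came without HET-1A library 1 (19), KYSE-150 library 7 (1) and KYSE-30 library 4 (8), and without HET-1A library 2 KYSE-30 had 2, the PHLDA1 promoter and the MDC1 and TUBB promoter. Without HET-1A library 1, the count in HET-1A is set by library 2 alone. Promoter counts in HET-1A library 2 and KYSE-30 library 6 stayed within 1.5 times of the reported ones under the other q-value, promoter, overlap and start site settings. DUSP5 had no peak within 1 kb of a start site. No paired analysis was possible because the lines share no replicate numbers and no test was made. Short lists limit what can be seen, since a missing peak in them does not show closed chromatin.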
